A study of Homo sapiens with 48 samples.

Results

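H1975 cells were treated for 24 h with compound kushen injection (CKI) at 1 mg/mL together with gefitinib at 50 µM, and their RNA was compared with that of cells left untreated for 24 h. The comparison was defined by treatment alone and took 6 of the 48 libraries of the study, 3 treated and 3 untreated. By the labels all libraries came from H1975, a lung adenocarcinoma cell line (non-small cell type) known to carry an activating and a resistance mutation of EGFR, the receptor tyrosine kinase that gefitinib inhibits. CKI is an injectable preparation of plant extracts used in traditional Chinese medicine. The other groups received gefitinib, CKI or a second preparation named only as YFSJ, alone or in pairs, and 2 of them are used below to place the pair: 50 µM gefitinib alone and 1 mg/mL CKI alone, 3 libraries each at 24 h. The labels describe the 3 libraries of a group as biological replicates, do not say whether they were separate cultures, and name no vehicle for the untreated cells.

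EGFR signals through the RAS, RAF, MEK and ERK kinases to transcription factors that raise growth genes such as FOSL1 and CCND1, and ERK in turn raises its own inhibitors, among them the phosphatase DUSP6. A cell that leaves the cycle lowers the genes of DNA replication, which the E2F factors drive, and those of mitosis, whose promoters often hold a cell cycle homology region. A shortage of amino acids or unfolded protein raises the factors ATF4 and CHOP, and a shortage of sterol in the endoplasmic reticulum releases SREBP factors that raise the cholesterol enzymes. These programmes were read here as lists of genes, each described by how many of its measured members passed the test.

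The 3 treated libraries held 21296035, 21474235 and 23806186 counts and the 3 untreated libraries 21608613, 16447592 and 20468329. Of the lung markers read, NKX2-1, a lung lineage factor, stood at 57.4, 72.2 and 72.9 CPM (counts scaled to the size of each library) in the untreated libraries and KRT7 at 1550, 1522 and 1863 CPM, while 9 of the 16 lung markers, the surfactant genes included, were too low to be tested. The catalogue number in the labels is the one of MCF-7, a luminal breast cancer line, and the genotype of the cells was not checked here. Of 15 luminal breast markers 6 were too low to be tested, ESR1 among them, and PGR, TFF3, AGR3, SCGB2A2 and PIP had 0 counts in all 6 libraries. The other 9 were measured: GATA3, TFF1, FOXA1, GREB1, AREG, XBP1, KRT19, MYB and CA12. NKX2-1 fell with both agents to between 28.4 and 30.8 CPM (log2 change -1.20), and the summed level of the lung list went from 1698, 1702 and 2043 to 1173, 1207 and 1335 CPM, most of it from KRT7. Of the 7 lung markers measured 2 rose and 2 fell. Of the 9 breast markers measured 5 rose and 1 fell, with a median log2 change of 0.72. The summed level of the breast list lay between 1454 and 1731 CPM in untreated and between 841 and 936 CPM in treated libraries, most of it from KRT19, a keratin that lung cancer cells also make. Of 13 liver markers APOB and FGA were at 0 in all 6 libraries, and the summed level of the list, 54.0 to 63.1 CPM in untreated and 93.6 to 96.8 CPM in treated libraries, came almost wholly from SERPINA1. Summed blood cell markers lay between 125 and 153 CPM in untreated and between 128 and 151 CPM in treated libraries, and fibroblast markers between 480 and 555 CPM and between 384 and 429 CPM. The share of counts on RNR2, the mitochondrial large ribosomal RNA, was 0.553%, 0.582% and 0.464% in untreated and 1.02%, 1.03% and 1.20% in treated libraries, and the part of this and of the marker levels in the results was not tested.

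With both agents, 8670 of 15789 genes tested (54.9%) changed at an adjusted p under 0.05 (edgeR quasi-likelihood test, Benjamini-Hochberg adjustment), 4273 higher (27.1% of genes tested) and 4397 lower (27.8%). Of these 2422, or 15.3% of genes tested, differed at least 2-fold. The count of each list below is to be read beside the shares of 27.1% and 27.8%. The scaling between libraries matters for the direction of small changes. CPM and fold changes here use trimmed mean of M-values (TMM) factors, which were 1.08 to 1.11 in treated and 0.90 to 0.94 in untreated libraries. With totals alone the median of all genes moved from 0.02 to 0.25 on the log2 scale and the split became 6434 higher and 2648 lower, so that 70.8% of changes were rises in place of 49.3%. Against gefitinib alone the pair changed 5015 genes (31.8%), 2453 higher (15.5%) and 2562 lower (16.2%), and against CKI alone 6163 (39.0%), of which 3032 were higher (19.2%) and 3131 lower (19.8%). With totals alone 71.0% and 71.3% of the changes in these comparisons were rises, in place of 48.9% and 49.2%, and the median of all genes went from 0.00 to 0.13 and from 0.02 to 0.17. Additivity was tested as whether the log2 change with both agents equals the sum of the log2 changes with each. It failed for 2798 genes, 17.7% of those tested, 1367 above the sum (8.66%) and 1431 below it (9.06%). In the first 2 principal components, which held 50.2% and 20.5% of the variance of the 12 libraries, the 4 groups lay apart: on the first component untreated libraries lay between -52.5 and -51.0, CKI libraries between -24.4 and -22.1, pair libraries between 31.6 and 34.8 and gefitinib libraries between 37.9 and 45.9.

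**Figure D1:**
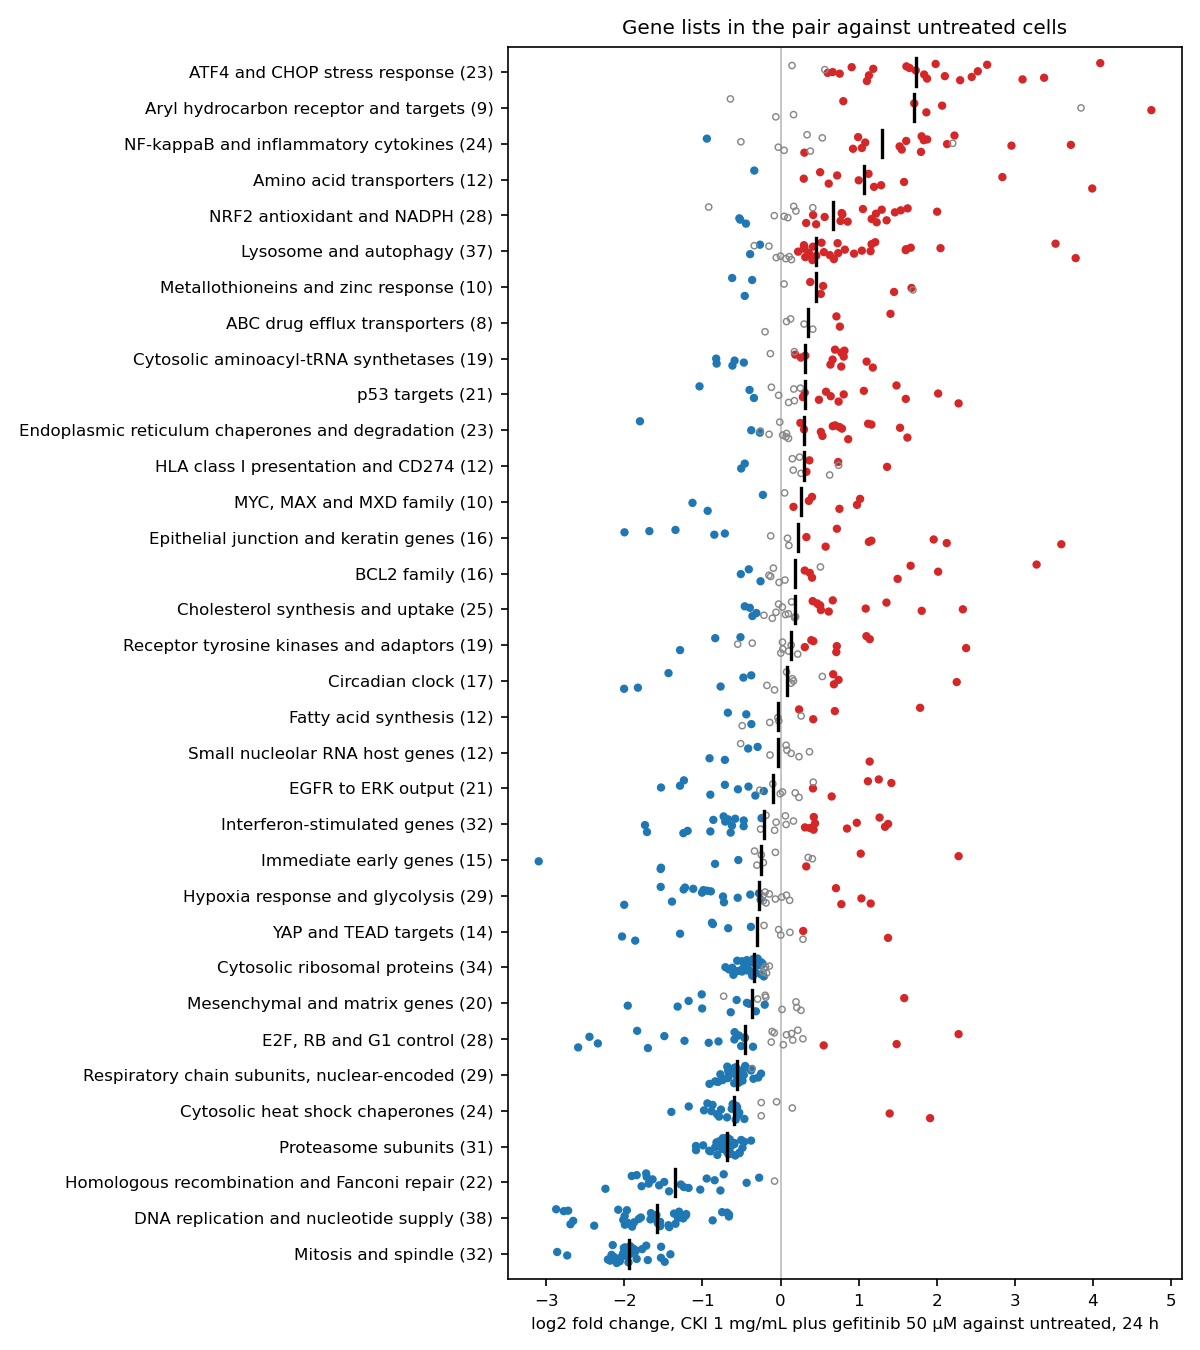
Log2 fold change of every measured member of the gene lists, cell type markers left out, with CKI 1 mg/mL plus gefitinib 50 µM against untreated cells at 24 h (x axis), lists in order of their median with the number of measured genes in brackets (y axis). Filled points passed an adjusted p under 0.05 (red higher, blue lower), open points did not, and black bars are medians: mitosis and replication genes lie wholly below 0, and ATF4 and CHOP genes have the highest median, 1.73.

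The genes of DNA replication and mitosis were lower in cells given both agents, without exception in the lists read. All 32 genes of mitosis and the spindle fell, with a median log2 change of -1.94, and all 38 of DNA replication and nucleotide supply fell with a median of -1.58, beside a median of 0.02 over all genes. Of 22 genes of homologous recombination and Fanconi repair 21 fell, with a median of -1.35. In bulk RNA, fewer cells in a phase of the cycle and less RNA per cell cannot be told apart. The promoters of CDC20, of the mitosis list, and of E2F1, of the G1 list described below, are printed for their motifs, a cell cycle homology region in CDC20 and an E2F site in E2F1. Each is the 250 bases before the gene start from RefSeq, build GRCh38.p14, at chr1:43358731-43358980 on the plus strand for CDC20 and chr20:33686386-33686635 on the minus strand for E2F1, and capitals mark the motif on either strand.
CDC20: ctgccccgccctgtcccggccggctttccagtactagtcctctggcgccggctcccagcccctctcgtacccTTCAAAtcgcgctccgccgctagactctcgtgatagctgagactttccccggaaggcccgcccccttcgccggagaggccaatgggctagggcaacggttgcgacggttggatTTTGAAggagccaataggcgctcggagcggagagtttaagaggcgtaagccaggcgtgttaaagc
E2F1: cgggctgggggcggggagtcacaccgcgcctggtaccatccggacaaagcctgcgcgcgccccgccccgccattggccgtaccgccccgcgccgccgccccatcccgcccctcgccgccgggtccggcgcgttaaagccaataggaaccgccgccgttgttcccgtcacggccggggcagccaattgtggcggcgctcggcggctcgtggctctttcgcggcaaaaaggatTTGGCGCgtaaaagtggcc

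In CDC20 the capitals mark TTCAAA and TTTGAA, which begin 178 and 65 bases before the start, and in E2F1 TTGGCGC, 19 bases before it. Among mitosis genes with a RefSeq window (250 bases before to 50 after the start, both strands) 19 of 28, or 67.9%, held TTTGAA, against 9.76% of windows of all tested genes. CCAAT, the NF-Y motif, was in 21 of those 28, or 75.0%, against 35.8%. Among replication genes 14 of 33, or 42.4%, held TTCGCGC or TTGGCGC, against 8.11%. None of the motifs searched here contains another, and a match of letters does not show that a factor binds.

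CDC20, which activates the anaphase-promoting complex, stood at 354, 390 and 424 CPM in untreated libraries and at 87.8, 82.7 and 86.6 CPM with both agents. The groups did not overlap, and the log2 change was -2.18 ± 0.08 (SE, n = 3 and 3, edgeR adjusted p = 1.02e-24). PLK1, a kinase of mitotic entry, fell by 2.21 and the kinesin KIF20A by 2.86 on the log2 scale. UHRF1, which keeps DNA methylation through replication, went from 324, 356 and 368 CPM to 46.1, 50.8 and 45.8 CPM. Its change of -2.88 was the largest fall of the replication list and among the 8 largest of all genes that met the level and overlap rules. GINS2 and MCM3, parts of the replicative helicase, fell by 2.66 and 1.90, and EXO1 and FANCI, an exonuclease and a Fanconi protein of DNA repair, by 1.78 and 1.64.

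Most mitosis and repair genes, and 19 of 38 replication genes, were higher with the pair than with gefitinib alone. Nearly all genes of the 3 lists were lower than with CKI alone. Mitosis genes had a median log2 change against untreated of -2.35 with gefitinib, -0.83 with CKI and -1.94 with both. In the direct test 23 of the 32 were higher with both agents than with gefitinib and none lower, and all 32 were lower than with CKI. The change with both fell short of the summed single changes for all 32, by a median of 1.28 on the log2 scale. Replication genes stood at medians of -2.02, -0.70 and -1.58, with 19 higher and 2 lower than with gefitinib, 38 of 38 lower than with CKI, and 35 above additivity. For repair genes 17 of 22 were higher than with gefitinib and 20 were above additivity. CDC20 had 67.8, 72.2 and 64.8 CPM with gefitinib and 184, 204 and 182 CPM with CKI, so its pair libraries stood between them, above every gefitinib library by 0.33 ± 0.08 (SE, log2; edgeR adjusted p = 0.00202). MCM10, a loader of the replication fork, stood at 40.6, 42.3 and 41.9 CPM untreated, 2.22, 3.25 and 3.97 with gefitinib, 23.2, 19.6 and 22.3 with CKI, and 6.14, 7.12 and 6.06 with both. Here too every pair library was above every gefitinib library, by 1.01 ± 0.16. UHRF1 did not show this: the pair differed from gefitinib alone by -0.00 with a 95% interval of -0.21 to 0.21. Nor did PLK1, KIF20A, GINS2 and MCM3, at 0.13, -0.14, -0.00 and 0.06, none passing the test. With totals alone PLK1 stood at 0.26 and passed (edgeR adjusted p = 0.0171). EXO1 and FANCI were higher than with gefitinib alone, by 0.99 and 0.48.

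The regulators of G1 were split. Of 28 genes of the E2F, RB and G1 list 16 fell and 3 rose (14 and 8 with totals alone). E2F2, an activating E2F factor, fell from 9.31, 9.34 and 11.3 CPM to 1.69, 1.55 and 1.70 CPM, a change of -2.59 ± 0.19, and E2F1 and CDK2, the kinase of S phase entry, fell by 1.70 and 1.49. CDKN1A, the p21 inhibitor of the cyclin-dependent kinases, rose from 43.2, 38.7 and 43.4 to 207, 197 and 206 CPM. This change of 2.28 ± 0.08 (edgeR adjusted p = 1.41e-25) was 0.69 above CKI alone, while the pair and gefitinib alone differed by 0.09 (adjusted p = 0.41), or by 0.22 with totals alone, which passed (adjusted p = 0.0332). CDKN1A shares exon sequence with an opposite-strand transcript, DINOL, which unstranded libraries cannot separate from it. Of 21 p53 targets 12 rose and 3 fell (16 and 1 with totals alone), with a median of 0.31: TNFRSF10B, a death receptor, rose by 1.07 and TP53INP1, a stress protein, by 1.61, whereas POLH, a translesion polymerase, fell by 1.04.

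**Figure D2:**
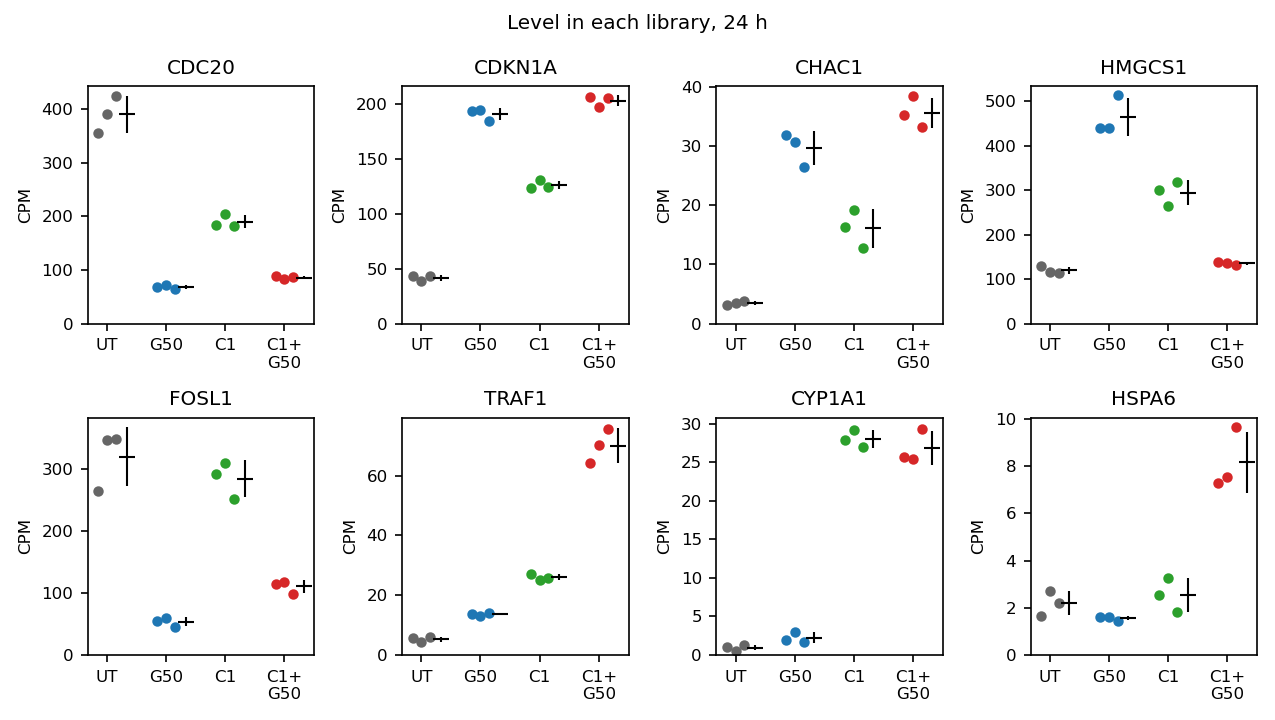
CPM (y axis, linear from 0) of 8 genes in each of 3 libraries of untreated cells (UT), gefitinib 50 µM (G50), CKI 1 mg/mL (C1) and both (C1+G50) at 24 h; points are libraries and the bar beside them is the mean with its SD. HMGCS1 with both agents, 133 to 139 CPM, is near the untreated 115 to 129 CPM. TRAF1, HSPA6, CHAC1 and CDKN1A have every pair library above every library of the other 3 groups. CHAC1 and CDKN1A did not pass against gefitinib alone, but did with totals alone as the scaling.

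The sterol genes, with a high median under each agent alone, had a median near 0 when both were given. Gefitinib alone gave the 25 genes of cholesterol synthesis and uptake a median log2 change of 1.39 and CKI alone 1.04, but the pair 0.18, with 11 higher, 4 lower and 10 not passing the test (13 and 0 with totals alone, median 0.41). Against gefitinib alone 24 of the 25 were lower and none higher, and against CKI alone 20 were lower and 1 higher. Additivity failed for 24, all below the summed change, with a median of -2.22. The promoter of HMGCS1, which makes the HMG-CoA of the pathway, is shown for its NF-Y motifs, 250 bases before the start at chr5:43313413-43313662 on the minus strand (RefSeq, GRCh38.p14).
HMGCS1: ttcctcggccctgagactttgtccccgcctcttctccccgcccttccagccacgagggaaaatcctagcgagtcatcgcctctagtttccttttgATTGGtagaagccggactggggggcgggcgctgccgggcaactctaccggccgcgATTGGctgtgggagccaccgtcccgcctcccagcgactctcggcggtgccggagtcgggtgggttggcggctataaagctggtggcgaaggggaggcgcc

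The capitals are ATTGG, the reverse complement of CCAAT, beginning 155 and 100 bases before the start. CCAAT was in the windows of 15 of 18 genes of this list, or 83.3%, against 35.8% of windows of all tested genes. The sterol regulatory element, searched as TCACNCCAC, was in 1 of the 18, SREBF2, and in 1.06% of windows of all tested genes, so most promoters of this list do not hold those exact letters in the window.

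HMGCS1 stood at 129, 116 and 115 CPM untreated, 440, 439 and 515 with gefitinib, 300, 265 and 319 with CKI, and 139, 135 and 133 with both. Every pair library lay below every library of either single agent and above every untreated one. The pair was 1.78 lower than gefitinib and 1.12 lower than CKI on the log2 scale (edgeR adjusted p = 1.15e-16 and 1.86e-11), and its change of 0.18 ± 0.11 against untreated did not pass the test, with a 95% interval of -0.03 to 0.39. With totals alone as the scaling that change was 0.41 and passed (adjusted p = 0.00198). MVD and DHCR7, a decarboxylase early and a reductase late in the pathway, lay 3.13 and 3.04 below additivity. TM7SF2, a sterol reductase, rose by 2.34 ± 0.19 with both agents and was the member nearest to CKI alone among those named, at -0.02 ± 0.16. LSS, the cyclase that makes lanosterol, rose by 1.81 and INSIG1, which holds SREBP back, by 1.36, and both were also below gefitinib alone, by 1.25 and 0.97, and below additivity, by 2.48 and 2.72. EBP, an isomerase of the same route, fell by 0.46, a call that was lost with totals alone (-0.22, adjusted p = 0.0574).

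Fatty acid synthesis genes were likewise lower than with gefitinib. The 12 genes measured had medians of 0.84 with gefitinib, 0.33 with CKI and -0.03 with both, the last becoming 0.21 with totals alone. With both agents 4 rose and 3 fell against untreated (5 and 1 with totals alone), 9 were lower than with gefitinib alone, and 8 lay below additivity. SCD, the desaturase that makes oleate, stood at 429, 397 and 394 CPM untreated and at 552, 542 and 536 with both, against 1718, 1742 and 1882 CPM with gefitinib alone. The treated libraries were above the untreated ones by 0.42 ± 0.13 and below the gefitinib ones by 1.71 ± 0.13. ACSS2, which makes acetyl-CoA from acetate, lay 2.46 below additivity. ACSL1, which activates fatty acids, differed from these: it rose by 1.79 and was above gefitinib alone by 0.44. ELOVL6, an elongase, fell by 0.67.

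**Figure D3:**
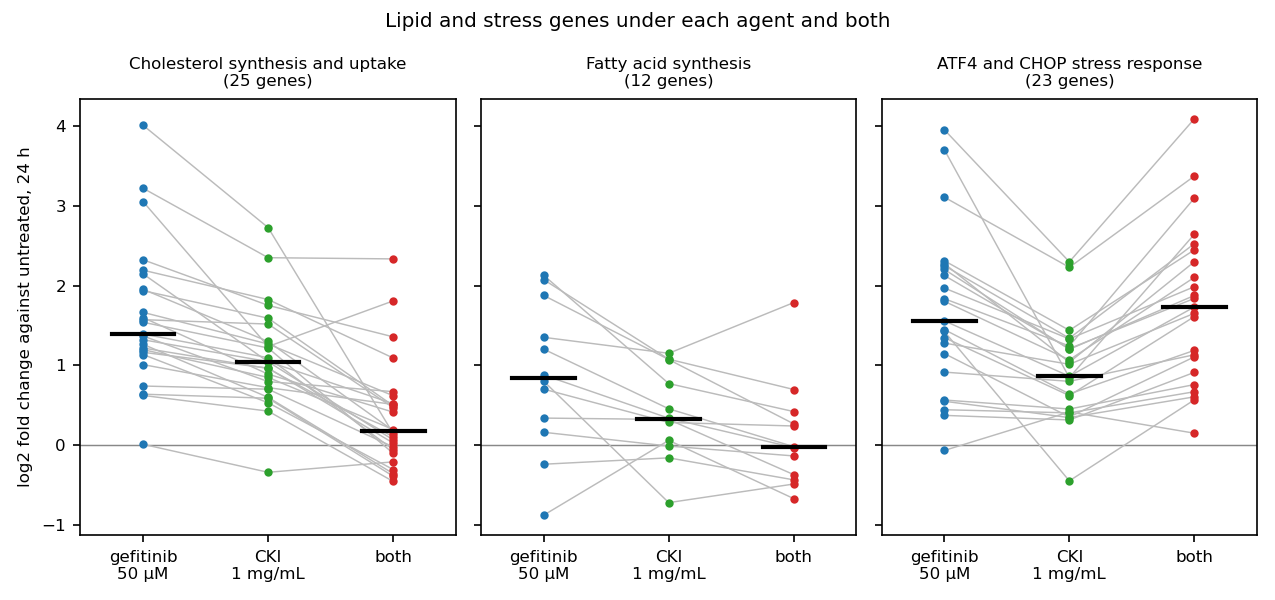
Log2 fold change against untreated cells at 24 h (y axis) with gefitinib 50 µM, CKI 1 mg/mL and both (x axis), each grey line 1 gene and black bars the medians; the 3 changes share the untreated libraries. Cholesterol medians are 1.39, 1.04 and 0.18, fatty acid medians 0.84, 0.33 and -0.03, and ATF4 and CHOP medians 1.56, 0.86 and 1.73.

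The genes of the ATF4 and CHOP response were mostly higher, and what raised them was not tested. Of 23 genes of the ATF4 and CHOP response 21 rose, none fell, and the median was 1.73. CHAC1, which degrades glutathione and is a target of ATF4, is shown with the composite element in its promoter, 250 bases before the start at chr15:40953221-40953470 on the plus strand (RefSeq, GRCh38.p14).
CHAC1: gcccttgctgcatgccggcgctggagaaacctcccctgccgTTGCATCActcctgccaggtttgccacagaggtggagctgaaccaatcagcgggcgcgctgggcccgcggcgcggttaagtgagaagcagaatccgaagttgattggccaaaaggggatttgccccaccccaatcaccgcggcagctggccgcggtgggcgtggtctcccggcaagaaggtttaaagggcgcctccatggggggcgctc

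The capitals are TTGCATCA, the reverse complement of TGATGNAA, and begin 209 bases before the start. TGATGNAA was in the windows of 4 of 20 listed genes of the response and in 1.81% of windows of all tested genes, and of 16 aminoacyl-tRNA synthetases 6 held it, or 37.5%. The 4 include FGF21, which was not among the genes tested. CHAC1 itself went from 3.14, 3.41 and 3.74 CPM to 35.3, 38.4 and 33.3 CPM, with no overlap, a change of 3.38 ± 0.15 (edgeR adjusted p = 1.06e-22).

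ATF3, a factor that ATF4 induces, rose from 7.99, 7.73 and 7.27 to 65.2, 63.6 and 68.7 CPM, by 3.10 ± 0.16. It was higher than with gefitinib by 1.26 and than with CKI by 1.86, and the summed single changes were met within 0.02, with a 95% interval of -0.41 to 0.45. DDIT3, which encodes CHOP, rose from 21.5, 22.3 and 20.5 to 110, 103 and 103 CPM, while its pair and gefitinib levels differed by 0.02 ± 0.19. DDIT3 and the synthetase gene MARS overlap on opposite strands, and the unstranded counts of each may hold reads of the other. SESN2, an inhibitor of mTORC1, rose by 2.45. ADM2, a secreted peptide, rose by 4.10. GDF15, a stress cytokine, went from 11.6, 17.3 and 14.6 to 233, 256 and 281 CPM, a rise of 4.15 ± 0.23 that was above gefitinib by 1.07 and above CKI by 0.97. The list as a whole was higher than with CKI for 21 of 23 genes, and against gefitinib 6 were higher and 4 lower, or 11 and 1 with totals alone. Additivity failed for 14, all below the sum.

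Amino acid transporters were also high, 11 of 12 rising and 1 falling, with a median of 1.06. SLC7A11, the cystine importer, had 13.1, 11.7 and 10.6 CPM untreated, 45.1, 38.3 and 48.7 with gefitinib, 137, 113 and 137 with CKI, and 188, 179 and 199 with both. Each pair library exceeded every other library, and the rise of 3.99 ± 0.16 against untreated was 1.35 below additivity. SLC1A4, a neutral amino acid carrier, rose by 2.84 and SLC3A2, the shared heavy chain of several carriers, by 1.20. SLC36A4 was 14.9, 14.5 and 14.4 CPM untreated and 12.3, 8.72 and 13.6 CPM treated, and its fall of 0.34 (adjusted p = 0.0263) was lost without pair library 2 (-0.17, adjusted p = 0.29), without untreated library 1 (-0.32, adjusted p = 0.065) and with totals alone (-0.10, adjusted p = 0.542). Of 19 cytosolic aminoacyl-tRNA synthetases 12 rose and 5 fell. AARS, for alanine, rose by 1.18, MARS, for methionine, by 0.81 and CARS, for cysteine, by 0.78, while KARS, for lysine, fell by 0.82.

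Of 23 chaperones and degradation factors of the endoplasmic reticulum 13 rose and 3 fell (16 and 1 with totals alone), with a median of 0.30, and 16 were higher than with gefitinib alone. HSPA5, the main chaperone of that compartment, went from 747, 724 and 736 CPM to 1291, 1299 and 1436 CPM, a change of 0.87 ± 0.09. HERPUD1, a degradation factor, rose by 1.53 and XBP1, a factor of the unfolded protein response, by 1.16, while DERL3 fell by 1.80. Of the 23, 2 departed from additivity.

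Of 24 heat shock chaperones of the cytosol 18 fell and 2 rose, with a median of -0.59. HSP90AB1, the constitutive HSP90, fell from 1922, 1931 and 1989 to 1009, 1030 and 921 CPM, a change of -0.98 ± 0.07, and its partner CHORDC1 fell by 1.18. HSPA6, a strictly stress-induced HSP70, was the exception with the largest rise. It had 1.67, 2.71 and 2.22 CPM untreated, 1.61, 1.6 and 1.45 with gefitinib, 2.54, 3.25 and 1.84 with CKI, and 7.31, 7.55 and 9.65 with both. Every pair library lay above all others, and the change of 1.92 ± 0.18 was 2.18 ± 0.30 above additivity (edgeR adjusted p = 4.19e-07). Its reads may be shared with near-identical HSP70 copies. All 31 proteasome subunits fell, with a median of -0.69, PSMC3 by 1.08 and PSMB2 by 0.91. Against CKI alone all 31 were lower, and against gefitinib alone 27 of 31 did not pass the test, 3 were higher and 1 was lower (13 and 0 with totals alone).

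Lysosome and autophagy genes rose in 28 of 37 cases and fell in 2, with a median of 0.46. SQSTM1, the p62 cargo receptor, rose from 405, 410 and 459 to 1215, 1296 and 1362 CPM, by 1.6 ± 0.09, WIPI1, which acts in autophagosome formation, by 2.05 and ATP6V0D2, a proton pump subunit, by 3.78. GLA, an alpha-galactosidase, fell by 0.39, a call lost with totals alone (-0.16, adjusted p = 0.237). RRAGD, a GTPase that places mTORC1 on lysosomes, was at 0.490, 0.515 and 0.326 CPM untreated and 5.62, 4.88 and 4.96 CPM with both. The groups were far apart, and the rise of 3.52 ± 0.24 was also above each single agent, by 1.05 and 0.94. TCACGTG, the core of the lysosomal CLEAR element, was in 8 of 25 windows of the list, 32.0%, against 5.60% of windows of all tested genes. The 8 include NEU1, which was not among the genes tested.

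Of 28 NRF2 genes 18 rose and 3 fell, with medians of 0.20 for gefitinib, 0.83 for CKI and 0.67 for both. In the direct tests 17 were higher and 3 lower than with gefitinib, and 2 higher and 12 lower than with CKI (3 and 7 with totals alone). TXNRD1, thioredoxin reductase, went from 318, 272 and 271 to 731, 704 and 775 CPM, by 1.36 ± 0.10, and differed from CKI alone by -0.09 (adjusted p = 0.476). TRIM16L and TRIM16, near copies of each other whose reads may be shared, rose by 1.63 and 1.06. NQO1, a quinone reductase, stood at 446, 407 and 424 CPM untreated, 343, 330 and 349 with gefitinib, 769, 737 and 714 with CKI, and 553, 517 and 533 with both, so that the pair lay between the 2 agents. HMOX1, heme oxygenase, rose by 1.23 but lay 1.95 below additivity, under each single agent by 0.41 and 0.30. The difference of HMOX1 from CKI was lost with totals alone (-0.15, adjusted p = 0.159). PRDX1, a peroxiredoxin, fell by 0.53.

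CYP1A1, the classic target of the aryl hydrocarbon receptor, had one of the largest rises of all genes. Its promoter is shown for the core GCGTG of the receptor's element, 250 bases before the start at chr15:74725529-74725778 on the minus strand (RefSeq, GRCh38.p14), with the match 57 bases before the start in capitals.
CYP1A1: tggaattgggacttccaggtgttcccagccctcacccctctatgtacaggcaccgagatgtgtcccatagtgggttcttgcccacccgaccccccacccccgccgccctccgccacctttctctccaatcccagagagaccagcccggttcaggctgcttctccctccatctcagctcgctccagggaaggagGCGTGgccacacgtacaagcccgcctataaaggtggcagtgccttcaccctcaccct

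The core is short and is in 49.2% of windows of all tested genes and in 5 of 9 of this list. The 5 include UGT1A6, which was not among the genes tested. CYP1A1 was 1.08, 0.580 and 1.25 CPM untreated, 1.92, 3.03 and 1.74 with gefitinib, 27.9, 29.2 and 27.0 with CKI, and 25.6, 25.5 and 29.4 with both. CKI and pair libraries overlapped, and their difference was -0.06 with a 95% interval of -0.38 to 0.25. The rise against untreated was 4.75 ± 0.23, and it lay 1.23 below additivity (adjusted p = 0.00677), which did not pass without gefitinib library 2 (-0.94, adjusted p = 0.0771). CYP1B1, a related oxidase, rose by 2.07 and AHRR, the receptor's repressor, by 1.87, and with these 5 of 9 measured genes rose and none fell. Of 10 metallothionein and zinc genes 5 rose and 3 fell. MT1M and MT1F rose by 1.68 and 1.46, SLC39A10, a zinc importer, fell by 0.62, and MT1E rose by 0.52, a call that was lost without pair library 1 (0.37, adjusted p = 0.0642). Without that library 2 of the 10 genes rose and 2 fell. The metallothionein genes are close copies and may share reads.

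The ERK output genes had a median with both agents that lay between those of the single agents. Their medians against untreated were -0.71 with gefitinib, 0.59 with CKI and -0.10 with both, the last becoming 0.14 with totals alone. With both agents 5 of 21 rose and 9 fell (8 and 5 with totals alone), but 16 were higher than with gefitinib and 1 lower, and none was higher and 14 were lower than with CKI. FOSL1, an AP-1 subunit that ERK sustains, stood at 266, 347 and 349 CPM untreated, 54.6, 60.5 and 45.6 with gefitinib, 292, 310 and 253 with CKI, and 116, 117 and 99.3 with both. The pair lay above all gefitinib libraries and below all others, by 1.05 and -1.36 against the single agents, and 1.22 ± 0.22 above additivity (edgeR adjusted p = 5.37e-05). DUSP6 had 17.3, 17.9 and 16.8 CPM untreated, 6.18, 4.95 and 6.35 with gefitinib, 33.9, 28.9 and 30.1 with CKI, and 15.6, 12.9 and 13.1 with both. Its difference from untreated was -0.32 ± 0.12 (adjusted p = 0.0212) and was lost without untreated library 2 (-0.30, adjusted p = 0.0606), pair library 2 (-0.27, adjusted p = 0.0889) or pair library 3 (-0.28, adjusted p = 0.0805), and with totals alone (-0.09, adjusted p = 0.58). Against gefitinib it was 1.25 higher. CCND1, cyclin D1, was 278, 303 and 297 CPM untreated, 105, 106 and 102 with gefitinib, 395, 410 and 404 with CKI, and 198, 191 and 194 with both. It fell by 0.59 against untreated and was 0.90 above gefitinib and 1.05 below CKI. EPHA2, a receptor kinase, fell by 1.29, and its difference from gefitinib alone, 0.08, did not pass the test. KCNN4, a potassium channel, fell by 1.24, and AREG, an EGFR ligand, rose by 1.42 from 1.27, 2.51 and 1.03 CPM.

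**Figure D4:**
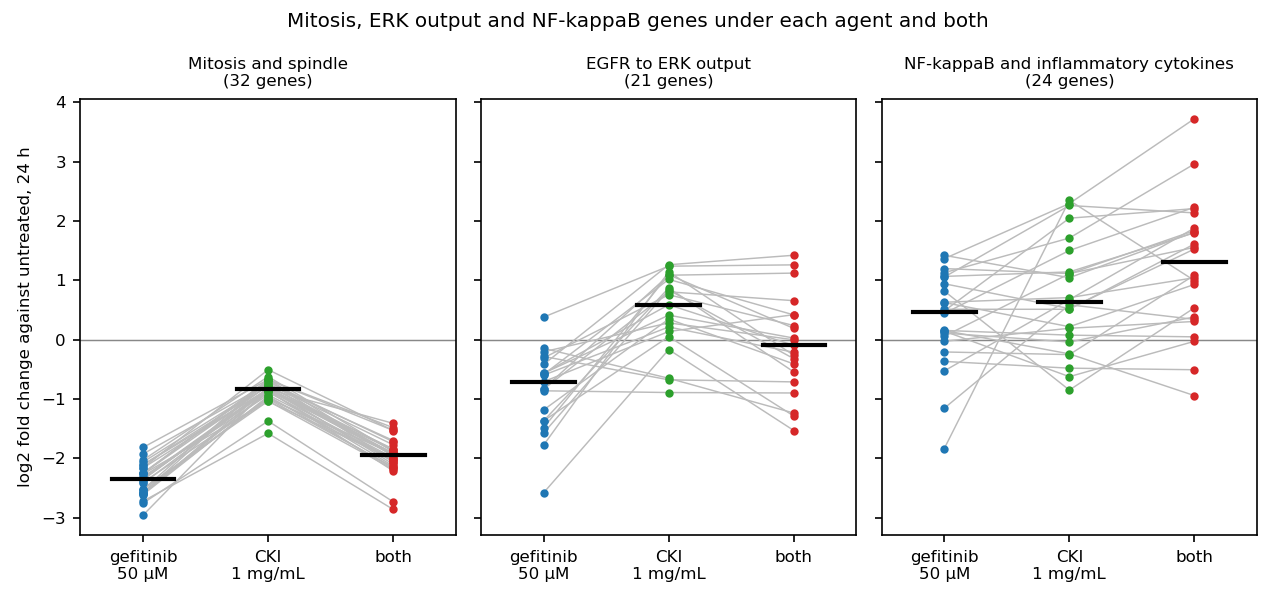
Log2 fold change against untreated cells at 24 h (y axis) with gefitinib 50 µM, CKI 1 mg/mL and both (x axis), each grey line 1 gene and black bars the medians; the 3 changes share the untreated libraries. Mitosis medians are -2.35, -0.83 and -1.94, ERK output medians -0.71, 0.59 and -0.10 (0.14 for both with totals alone), and NF-kappaB medians 0.46, 0.63 and 1.31.

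EGFR itself was 84.4, 84.5 and 80.9 CPM untreated and 87.7, 98.8 and 104 CPM with both agents. Its change of 0.22 ± 0.16 did not pass (adjusted p = 0.263, 95% interval -0.11 to 0.55), but passed when only the 6 or the 12 libraries were fitted (0.23 and 0.24, adjusted p = 0.0258 and 0.0446) and with totals alone (0.45, adjusted p = 0.021). ERBB2 and MET, receptors that can take over from EGFR, changed by 0.00 ± 0.11 and 0.10 ± 0.13, with 95% intervals of -0.22 to 0.22 and -0.16 to 0.37. With totals alone they stood at 0.24 and 0.33 and passed (adjusted p = 0.0398 and 0.0462). ERBB2 was lower than with gefitinib alone by 0.66 and 0.58 below additivity. AXL, a receptor kinase linked to drug tolerance, fell from 104, 103 and 117 to 41.2, 46.3 and 45.0 CPM, by 1.29 ± 0.20. ERBB3 rose by 0.71 and MERTK, a relative of AXL, by 2.38, from 3.53, 2.26 and 1.90 to 13.7, 13.9 and 12.9 CPM. In the list of 19 receptor kinases and adaptors 8 rose and 3 fell, 13 and 2 with totals alone.

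MYC fell from 1619, 1694 and 1756 to 928, 965 and 761 CPM, by 0.93 ± 0.14, and of its antagonists MXI1 and MXD1 rose by 1.02 and 0.98 while MXD3 fell by 1.13. In the list of 10 MYC, MAX and MXD genes 6 rose and 3 fell. MXD3 overlaps PRELID1 on the other strand. The pair was 0.62 below CKI alone for MYC, and its difference from gefitinib, -0.14, did not pass. Of 15 immediate early genes 5 fell and 3 rose (3 and 5 with totals alone), beside 27.8% and 27.1% of all genes tested. FOS was 66.2, 72.7 and 83.4 CPM untreated and 29.7, 28.4 and 18.7 CPM with both, a fall of 1.54 ± 0.27, and was below gefitinib by 2.01, below CKI by 1.09 and below additivity by 1.56 (adjusted p = 0.00249). FOSB fell by 1.53 and lay 1.48 below additivity. EGR3 fell from 1.13, 1.10 and 1.09 to 0.0432, 0.129 and 0.189 CPM, levels of so few counts that the fitted change of -3.10 ± 0.52 is imprecise. NR4A3, an orphan nuclear receptor, rose by 2.28.

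Death regulators changed in both directions, as did all genes tested (27.1% higher and 27.8% lower). Of 16 BCL2 family genes 7 rose and 3 fell (9 and 0 with totals alone), and the 3 rises with the smallest p were of killer proteins that bind BCL2 and its relatives. HRK went from 1.62, 1.74 and 1.19 to 12.5, 15.1 and 16.6 CPM, by 3.28 ± 0.16, BMF from 5.88, 5.09 and 6.51 to 18.5, 18.7 and 18.6 CPM, by 1.67, and BBC3, which encodes PUMA, by 2.02. HRK and BMF differed from gefitinib alone by -0.17 and -0.10, neither passing the test, and BBC3 was 0.81 lower. BOK fell by 0.51, a call lost without untreated library 3 (-0.36, adjusted p = 0.0505) and with totals alone (-0.27, adjusted p = 0.0753).

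NF-kappaB and cytokine genes had a higher median with the pair than with either agent. Of 24 measured 16 rose and 1 fell, with a median of 1.31, against 0.46 for gefitinib and 0.63 for CKI. In each direct test 15 were higher and 1 lower, and 19 did not depart from additivity. TRAF1, a signalling adaptor that NF-kappaB induces, had 5.64, 4.32 and 5.86 CPM untreated, 13.7, 13.2 and 14.1 with gefitinib, 27.1, 25.1 and 25.8 with CKI, and 64.1, 70.2 and 75.7 with both. The 4 groups did not overlap. TRAF1 rose by 3.72 ± 0.15, and its departure from additivity was 0.07 with a 95% interval of -0.34 to 0.48. BIRC3, a survival protein, rose by 2.96 and ICAM1, an adhesion molecule, by 1.81. CCL2, a chemokine, fell from 4.66, 3.93 and 2.66 to 2.16, 1.64 and 2.04 CPM, by 0.94 (adjusted p = 0.022), which was lost without untreated library 1 (-0.74, adjusted p = 0.125), untreated library 2 (-0.92, adjusted p = 0.0507) or pair library 2 (-0.84, adjusted p = 0.0766), and with totals alone (-0.71, adjusted p = 0.095).

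Of 32 interferon-stimulated genes 15 fell and 10 rose (10 and 13 with totals alone), with medians of 0.10 for gefitinib, -0.53 for CKI and -0.21 for both (0.02 with totals alone). The pair was lower than gefitinib for 15 and higher for 2, and higher than CKI for 15 and lower for 2. OASL, an antiviral synthetase relative, fell from 55.6, 59.5 and 53.8 to 16.9, 16.2 and 17.6 CPM, by 1.74 ± 0.10, and IFIT1 and IFIT3, antiviral proteins, by 1.71 and 1.19. STAT2, which carries the interferon signal, rose by 1.38. Of 12 HLA class I genes 4 rose and 2 fell (8 and 1 with totals alone), beside 27.1% and 27.8% of all genes tested. NLRC5, their activator, rose by 0.74 and HLA-C by 0.33, while TAP2, a peptide transporter, fell by 0.50. TAPBP reached 1.34 CPM at most in these 12 libraries, and its rise of 1.37 is uncertain because genes of this region have alternative copies in the assembly.

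Of 29 hypoxia and glycolysis genes 16 fell and 4 rose (13 and 7 with totals alone), and against CKI alone 23 were lower and 1 higher. LDHA, lactate dehydrogenase, fell from 2896, 2567 and 2660 to 982, 923 and 897 CPM, by 1.54 ± 0.10, PGAM1 by 1.24 and PKM, pyruvate kinase, by 1.22. NDRG1, a stress gene, rose by 1.16 but was 0.52 below gefitinib alone and 1.66 below additivity. Of 29 nuclear-encoded respiratory chain subunits 28 fell, with a median of -0.56, NDUFA9 of complex I by 0.80 and ATP5F1B of the ATP synthase by 0.68. Of 34 cytosolic ribosomal protein genes 29 fell and none rose, with a median of -0.34, and with totals alone 11 fell and the median was -0.11. RPL24 fell by 0.66 and RPL6 by 0.60. Pseudogenes of these short genes may take some of their reads. Of 12 small nucleolar RNA hosts 4 fell and 1 rose, beside 27.8% and 27.1% of all genes tested. With totals alone 1 fell and 4 rose, and the median, -0.03, became 0.20. It was 0.01 without untreated library 2 and 0.02 without pair library 3. The clearest were SNHG3, down by 0.91, and GAS5, up by 1.14. SNHG16 fell by 0.29 and SNHG1 by 0.71, and both calls were lost with totals alone (adjusted p = 0.669 and 0.183). They were also lost without untreated library 2 (-0.26 and -0.58, adjusted p = 0.0685 and 0.131) or pair library 3 (-0.25 and -0.68, adjusted p = 0.0789 and 0.085). SNHG1 was lost too without untreated library 1 (-0.75, adjusted p = 0.0514), pair library 1 (-0.77, adjusted p = 0.0515) or pair library 2 (-0.68, adjusted p = 0.0845). With any 1 library left out, other than untreated library 3, the count of hosts that fell was 1 or 2.

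Structural genes changed in both directions, as did all genes tested. Of 20 mesenchymal and matrix genes 11 fell and 1 rose (8 and 4 with totals alone): THBS1, an adhesive matrix protein, fell from 516, 473 and 495 to 121, 131 and 130 CPM, by 1.96 ± 0.16 and TGFBI by 1.18. COL4A1 rose by 1.59 from 0.245, 0.129 and 0.217 to 0.778, 0.388 and 0.681 CPM. That call, at few counts, was lost without untreated library 2 (1.39, adjusted p = 0.0679) or pair library 1 (1.40, adjusted p = 0.0671). Of 16 epithelial genes 8 rose and 5 fell, and the junction genes and keratins named here moved apart. CLDN1, a tight junction claudin, went from 1.81, 2.32 and 1.57 to 21.1, 21.4 and 26.1 CPM, by 3.60 ± 0.18, OCLN by 1.96 and CLDN7 by 1.16, while KRT8, a keratin, fell from 3180, 3045 and 3496 to 791, 812 and 828 CPM, by 2.00. KRT8 reads may be shared with its overlapping neighbour KRT18 and with pseudogenes. Of 14 YAP and TEAD targets 7 fell and 2 rose (6 and 5 with totals alone), CTGF and AMOTL1 by -1.86 and -2.03 and ANKRD1 by 1.38, the last 2.39 below additivity. Of 17 clock genes 6 fell and 4 rose (4 and 6 with totals alone), beside 27.8% and 27.1% of all genes tested. Their median, 0.08, was -0.04 without pair library 3. PER2 and PER3, the period repressors, fell by 2.00 and 1.83 and NPAS2, which drives them, rose by 2.26. Of 8 drug efflux transporters 3 rose and none fell (7 with totals alone), ABCA3 by 1.41, ABCC3 by 0.76 and ABCG2 by 0.72.

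The largest rises of all genes that met the level and overlap rules included secreted and metabolic genes of low untreated level. KLHDC7B, a gene of unclear function, went from 0.686, 1.35 and 1.57 to 55.8, 65.9 and 55.6 CPM, by 5.64 ± 0.28 (edgeR adjusted p = 4.81e-19). It was above CKI alone by 2.72 and above gefitinib alone by 0.68. IL24, a cytokine of the IL-10 family, was 2.01, 1.22 and 1.63 CPM untreated, 3.15, 3.51 and 3.59 with gefitinib, 31.3, 28.3 and 25.3 with CKI, and 70.9, 70.2 and 76.5 with both, with no overlap between any of the 4 groups. Its rise of 5.46 ± 0.28 was 4.40 above gefitinib and 1.36 above CKI. Smaller in level were IGFL2-AS1, a long noncoding RNA, with 12.2, 12.3 and 10.5 CPM in the pair and a rise of 4.54, PSG1, a pregnancy-specific glycoprotein, with 4.28, and GCNT3, a mucin glycosyltransferase, also with 4.28. PSG1 belongs to a family of near-identical genes, so its counts are uncertain.

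Among the largest falls, RGS4, which shortens G protein signals, went from 48.9, 40.3 and 40.9 to 4.54, 2.72 and 3.67 CPM. The change was -3.57 ± 0.16, its difference from gefitinib alone did not pass (-0.32 ± 0.18, adjusted p = 0.179), and it was 3.49 below CKI alone. MGP, an inhibitor of calcification, fell by 2.98 from 24.1, 21.9 and 19.6 CPM, and the pair was below gefitinib by 2.28 and below CKI by 0.83. CYP24A1, which breaks down vitamin D, fell by 2.97 and was below both single agents, by 1.82 and 1.31. MANCR, a noncoding RNA, FAM111B, a replication-linked protease, RASSF10 and EFNA2, an ephrin, fell by 3.02, 2.98, 2.90 and 2.89. EFNA2 was also among the genes furthest below gefitinib alone, by 2.81.

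In the comparisons with single agents, the genes ranked here passed the test, showed no overlap between groups and averaged 5 CPM or more where they were higher. Against gefitinib alone the highest genes beside IL24, CYP1A1 and PSG1 were HTRA3, a secreted protease, at 3.63 and ANGPTL4, a lipase inhibitor, at 2.97. ANGPTL4 stood at 19.3, 23.1 and 24.6 CPM untreated and 33.2, 33.5 and 41.6 with both. That smaller rise of 0.70 was lost without untreated library 1 (0.60, adjusted p = 0.0634) or pair library 3 (0.58, adjusted p = 0.0643). The lowest were SEMA5B, a guidance protein, at -3.21, then EFNA2, SLCO2A1, a prostaglandin transporter, at -2.66, ALPP, placental alkaline phosphatase, at -2.54 and CLIC3 at -2.44. ALPP has near-identical neighbours in its family. Against CKI alone the highest beside KLHDC7B were LOC100130705 at 2.63, KCP at 2.43, NEURL3, a ubiquitin ligase, at 2.35 and IL1RN, the interleukin-1 receptor antagonist, at 2.16. LOC100130705 and KCP were also lower than with gefitinib alone, by 0.98 and 0.99. The lowest were RGS4, then LAMB1, a laminin chain, at -2.35, UHRF1 at -1.92, ACOX2, a peroxisomal oxidase, at -1.91 and AMOTL1 at -1.90.

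Among genes that passed and had a mean of at least 5 CPM in 1 of the 4 groups, the furthest below additivity was ERVV-2, an endogenous retroviral envelope gene. It stood at 0.539, 1.22 and 0.434 CPM untreated, 14.5, 13.1 and 14.2 with gefitinib, 3.86, 3.58 and 2.65 with CKI, and 5.58, 5.82 and 4.77 with both. The pair was below every gefitinib library and above every CKI library, and lay 3.61 ± 0.34 below additivity (edgeR adjusted p = 4.27e-11). Reads of such repeats can be shared between copies. ERVV-2 had 11, 19 and 8 counts in the untreated libraries, so its departure rests on few counts there. Furthest above additivity by the same rule were E2F2 at 2.66, TERT, the telomerase enzyme, at 2.41, CX3CL1 at 2.30, HSPA6 at 2.18 and MCM10 at 1.95. With gefitinib alone E2F2 had 15, 17 and 17 counts and TERT 7, 17 and 13, so both departures rest on few counts there. CX3CL1, a membrane-bound chemokine, was 36.9, 44.6 and 47.6 CPM untreated, 16.7, 17.1 and 12.3 with gefitinib, 19.7, 21.4 and 19.2 with CKI, and 34.8, 40.6 and 30.6 with both. The pair overlapped the untreated libraries and differed from them by -0.29 with a 95% interval of -0.64 to 0.07 (it passed when only the 6 libraries were fitted, at -0.28, adjusted p = 0.0415), while it was above each single agent by 1.21 and 0.81.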

How the data were processed

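Per the labels, the 48 libraries were paired-end and unstranded, with 3 biological replicates of H1975 cells in each of 16 groups. The authors deposited 1 table of raw counts for 27978 gene symbols. Trim Galore 0.4.2, STAR 2.5.3a, edgeR and the build hg19 are named, per the submitters' processing notes, and the counting tool, annotation and strand setting are not given in the sources used here. Promoter sequences are of another build and were matched by symbol, for 11626 genes (73.6% of those tested). Opposite-strand exon overlaps were read from GENCODE by symbol, and 62 of 170 named genes found there had one. Beside those given above, they include KCP with ATP6V1F, SQSTM1 with MGAT4B and MRNIP, LAMB1 with DLD and KIF20A with BRD8 and CDC23. CLDN7 with ELP5, POLH with GTPBP2 and TNFRSF10B with RHOBTB2 are further cases. How far reads of the other gene entered these counts was not tested.

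Counts were fitted in R 4.3.3 with edgeR 4.0.16: filterByExpr with a minimum count of 10 and total of 15 (15789 genes, 99.97% of counts), TMM factors, robust dispersion and quasi-likelihood fits with 1 mean for each of 16 groups over 48 libraries (32 residual degrees of freedom). Contrasts were tested two-sided with Benjamini-Hochberg adjustment over all genes tested, and an adjusted p under 0.05 passed. The SE is the log2 change divided by the square root of F. Values named 3 per group are in replicate order. Depth ran from 16428398 to 26264162 counts, and 3 counts are 0.126 to 0.182 CPM in the 6 libraries compared. Replicates differed by more than counting noise (chi-square per gene 4.5 to 24).

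The members of the comparison and the gene lists were chosen with earlier results of these data known. Named genes were the 8 largest changes each way whose groups did not overlap and whose higher group reached 5 CPM, the 3 smallest p per list with the largest opposite change, the 5 largest each way in the other comparisons, and a short set of drug and stress genes. Some genes that this rule takes are not reported here, and the counts and medians of their lists include them. The fit was also run on simulated counts in which few genes differed, as many higher as lower, and only in the pair group. Far more genes passed in these data, so that run cannot check the scaling between libraries. Alternatives were DESeq2 1.42.0, other scalings, no count filter, a replicate block, smaller fits, stricter thresholds and each library left out. Scalings of the lists in the comparisons with single agents were added after seeing the data.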

Additional observations from a re-analysis of the deposited data

Results flagged for a closer look

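Additivity was the test of whether the change that CKI makes differs with and without gefitinib, and it failed for 2798 genes. Only genes named for their departure from additivity and the short set of drug and stress genes are listed here. Other named genes passed too, among them INSIG1 (-2.72) below the sum and EXO1 (1.71) above it. With edgeR's quasi-likelihood test and Benjamini-Hochberg adjustment, the listed genes below the sum of the single log2 changes were ERVV-2 (-3.61), TM7SF2 (-3.24), MVD (-3.13), HMGCS1 (-3.08), DHCR7 (-3.04), GDF15 (-2.11), HMOX1 (-1.95), RRAGD (-1.53), CDKN1A (-1.51), SQSTM1 (-1.24), CYP1A1 (-1.23), DDIT3 (-1.01) and ERBB2 (-0.58). The listed genes above it were FOSL1 (1.22), MCM10 (1.95), HSPA6 (2.18), CX3CL1 (2.30), TERT (2.41) and E2F2 (2.66), with few counts of TERT and E2F2 in the gefitinib libraries. All are log2 differences over 3 libraries in each of 4 groups. ERVV-2, RRAGD and CYP1A1 had few counts in the untreated libraries. TM7SF2, MVD, HMGCS1 and DHCR7 belong to the cholesterol list. CYP1A1 did not pass without gefitinib library 2 (-0.94, adjusted p = 0.0771).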

How the results depend on the processing

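Named genes were recomputed against untreated and, for some, in the comparison that named them or for additivity, 233 results in all. None that had passed reversed direction, while some near 0 that had not passed changed sign when a library was left out. At an adjusted p under 0.01 the pair changed 3223 genes against gefitinib alone, and 1638 departed from additivity. Against a fold of 1.5 (glmTreat) the counts were 2704 against untreated, 493 against gefitinib, 786 against CKI and 385 for additivity, and 39 of the 233 results of named genes, all against untreated or for additivity, no longer passed. Other settings kept the number of genes passing in either direction within 1.5 times. Higher and lower genes counted apart moved further with totals alone. Lower genes went from 4397 to 2648 against untreated and from 3131 to 1851 against CKI. Against gefitinib, higher genes went from 2453 to 4021. For additivity the split moved less, from 1367 to 1494 higher and from 1431 to 1245 lower. In either direction DESeq2 gave 8585, 5025, 6096 and 2986. Leaving out each library gave 7856 to 7995 against untreated and 3601 to 5164 against gefitinib. It also gave 5101 to 5336 against CKI and 2061 to 3238 for additivity. With the replicate number as a block the counts were 8617, 4922, 6073 and 2683, and no call of a named gene changed. The replicate numbers share no stated source. Same-numbered untreated and pair libraries deviated with correlations of 0.0406, 0.0372 and -0.0895, and not every library correlated best with its own number. Same-numbered gefitinib and pair libraries had correlations of 0.0124, 0.173 and 0.161. Libraries 2 and 3 of these groups, when crossed, had -0.124 and -0.198, so some pairing between treated groups is not settled. The departure of KCNN4 from additivity, -0.44, passed in 5 settings, with the 12 libraries alone (-0.45), with DESeq2 (-0.44) and without untreated, gefitinib or CKI library 3 (-0.52, -0.52 and -0.51). That of CCND1 passed with totals alone (0.48) and with the 12 libraries alone (0.42). SLC36A4 against untreated was also lost with the 12 libraries alone (-0.31) and SNHG1 with no count filter (-0.71). Genes near 3 counts cannot be resolved at this depth.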
